A study of Mus musculus with 12 samples.

Results

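GABA (gamma-aminobutyric acid) is the main inhibitory transmitter of the cortex, and 8 genes that make it, load it, take it up, break it down and sense it were followed across 12 libraries of mouse medial prefrontal cortex. The 8 were listed by name for this purpose, with earlier results of these data known. They were Gad1 and Gad2 (synthesis), Slc32a1 (loading into vesicles), Slc6a11 (uptake), Abat and Aldh5a1 (breakdown), and Gabbr1 and Gabbr2 (the GABA-B receptor). All 8 were among the 17283 genes with a value and among the 13586 that passed the filter on low values.

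C57 or BTBR mice received astragaloside IV (ASIV), a plant saponin, or its solvent by intraperitoneal injection for 7 days. The question was whether the compound alters neurotransmission in BTBR, which is inbred and serves as an autism model. Each strain had 3 libraries with the solvent (DMSO, called vehicle here) and 3 with ASIV, which makes 4 groups. The C57 mice were labelled wild type, and no transgene or induced allele was named for either strain, so BTBR and C57 differ across the whole genetic background. The labels number the libraries of a group as parallel samples without saying whether they came from separate animals. The p-values below therefore measure the spread between these libraries, which may be technical. Dose, age and sex were not given in the labels used here.

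GABA is made from glutamate by the glutamate decarboxylases GAD67 (Gad1) and GAD65 (Gad2) in inhibitory neurons and is packed into synaptic vesicles by the vesicular transporter VGAT (Slc32a1). After release it is cleared by plasma membrane transporters, among them GAT3 (Slc6a11), found largely on astrocytes. GABA transaminase (Abat) and succinic semialdehyde dehydrogenase (Aldh5a1) then carry it into the tricarboxylic acid cycle, and the GABA-B receptor, an obligate dimer of Gabbr1 and Gabbr2 products, answers it through G proteins.

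In BTBR under vehicle, 4 of the 8 genes were lower than in C57 (Slc32a1, Slc6a11, Abat and Gabbr2) and none was higher, at a Benjamini-Hochberg adjusted p under 0.05 in limma's moderated test over all 13586 genes. Of all tested genes, 20.8% were called lower and 22.3% higher in that comparison. The 8 were chosen with earlier results known, so shares over all genes are given for scale and not as a test of the set. In BTBR given ASIV, 3 of the 8 (Slc32a1, Slc6a11 and Abat) were higher than in BTBR given vehicle and none was lower, against 13.7% of all genes called higher and 15.4% called lower. Neither synthetic enzyme gene nor Gabbr1 passed the test in any of the comparisons. ASIV gave no call among the 8 in C57, where it gave none among all genes (0.0%).

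Shown here, as a description, are the sequences upstream of Slc32a1, Slc6a11 and Gabbr2, which were lower in BTBR under vehicle. That of Gabbr1, the partner of Gabbr2, which did not pass the test, is added. The sequences are of the reference assembly and not of BTBR, so they cannot show a strain difference. Their part in the levels was not tested. They come from RefSeq (GRCm38.p6, the same assembly as mm10), cover the 250 bases before the annotated start or the part of them that lies outside the GENCODE gene, and read 5′ to 3′ in the direction of the gene. Capitals mark the GC box bound by Sp1 family factors (GGGCGG, or CCGCCC on the other strand). The windows are chr2:158610508-158610757 on the plus strand for Slc32a1, chr6:114130991-114131240 on the plus strand for Slc6a11, chr4:46991874-46991964 on the minus strand for Gabbr2 and chr17:37045716-37045965 on the plus strand for Gabbr1.
Slc32a1: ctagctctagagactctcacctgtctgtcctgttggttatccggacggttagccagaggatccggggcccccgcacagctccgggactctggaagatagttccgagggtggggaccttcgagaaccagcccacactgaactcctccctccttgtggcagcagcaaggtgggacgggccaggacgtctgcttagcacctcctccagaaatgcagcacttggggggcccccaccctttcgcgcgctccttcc
Slc6a11: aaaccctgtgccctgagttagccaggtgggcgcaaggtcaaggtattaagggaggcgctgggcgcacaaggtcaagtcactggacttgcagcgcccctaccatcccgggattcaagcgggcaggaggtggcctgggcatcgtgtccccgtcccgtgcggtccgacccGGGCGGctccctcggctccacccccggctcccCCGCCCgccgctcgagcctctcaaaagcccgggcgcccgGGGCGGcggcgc
Gabbr2: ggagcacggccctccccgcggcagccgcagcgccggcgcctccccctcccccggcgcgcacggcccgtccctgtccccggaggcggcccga
Gabbr1: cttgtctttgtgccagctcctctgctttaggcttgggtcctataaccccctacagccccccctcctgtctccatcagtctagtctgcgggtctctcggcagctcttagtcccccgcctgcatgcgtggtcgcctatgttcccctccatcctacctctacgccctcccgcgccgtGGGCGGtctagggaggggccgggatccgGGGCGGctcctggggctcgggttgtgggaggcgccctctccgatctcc
The 250 bases hold 3 GC boxes for Slc6a11, 2 for Gabbr1 and none for Slc32a1. Gabbr2 has 2 in its 250 bases, in the stretch inside the GENCODE gene that is not shown. The box occurred in 32.7% of 32851 RefSeq promoter windows of this length. CpG dinucleotides numbered 12 for Slc32a1, 25 for Slc6a11, 16 for Gabbr1 and 37 for Gabbr2, against a median of 6 over all windows. A search on both strands found none of TATAAA (12.4% of windows), CACGTG (6.02%), TGACG (17.8%) and CCAAT (33.9%) in these 4 windows. The searched motifs did not overlap each other there, and 7 of the 8 genes had an entry in the RefSeq table. Abat had none.

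The values are FPKM, fragment counts scaled to exon length and to library depth. The exon length that fits the values takes in all annotated exons of a gene, whether used in this tissue or not. The order of levels across genes, and the size of a ratio between genes, are therefore approximate. In C57 under vehicle the order by mean FPKM was Gabbr1 (113), Gabbr2 (64.6), Slc6a11 (63.6), Gad1 (53.1), Slc32a1 (39.2), Abat (34.1), Gad2 (29.8) and Aldh5a1 (15.9). Gabbr1 lay above Gabbr2, and Gad2 above Aldh5a1, with no overlap between libraries. The other neighbours in that order overlapped. Each library held between 16166327 and 18660039 fragments, as recovered from the FPKM values. The lowest count of any member in a library was for Slc32a1 (942 to 2842 fragments per library), and Aldh5a1 had 1241 to 2030.

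**Figure D1:**
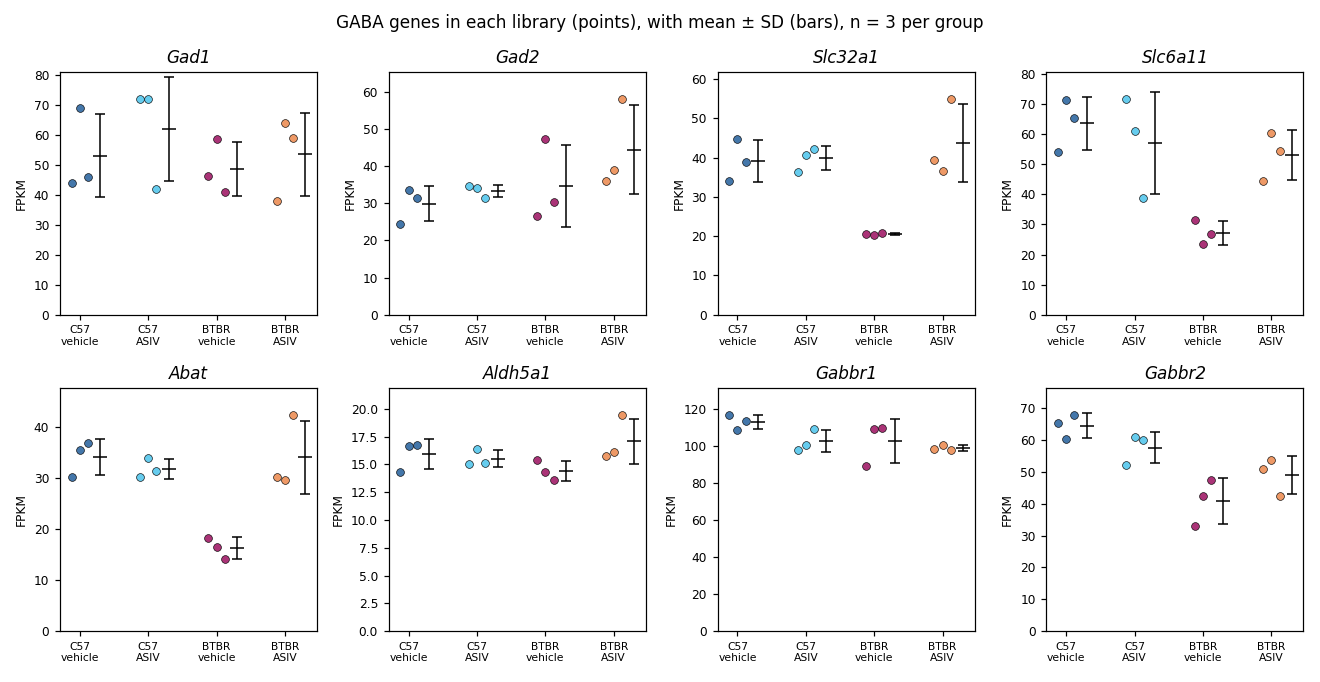
FPKM of each of the 8 genes (y axis, linear, from 0) in the 12 libraries by group (x axis), with the mean and SD beside each group of 3. The 3 BTBR vehicle libraries sit below every other library for Slc32a1, Slc6a11 and Abat, whereas for Gad1, Gad2 and Gabbr1 they overlap the other groups.

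As a property of the whole series, the BTBR vehicle libraries stood apart. On the leading principal component (54% of the variance) they lay at 36.9 to 47.8, the other 9 at -23.7 to 2.25. Mitochondrially encoded genes took 0.614% to 1.16% of the fragments in them and 3.50% to 5.42% in the others. All 3 libraries of that group were affected, so group and library state cannot be told apart. The calls on Slc32a1, Slc6a11, Abat and Gabbr2 held when FPKM was rescaled without mitochondrial genes. The medial prefrontal cortex label could not be checked on the excitatory neuron markers, which do not separate one cortical region from another. Their 14 genes summed to 1693 to 2716 FPKM. Markers of striatal projection neurons were also present, at 78.95 to 514.7 FPKM summed over 11 genes, as were those of the olfactory bulb and subventricular neuroblasts, at 10.7 to 58.7 over 6. These regional sums varied within each group, and the olfactory and neuroblast sum also moved with the groups: it was 11.1 to 15.9 FPKM in BTBR vehicle, below all libraries of C57 vehicle (16.8 to 48.6) and BTBR ASIV (19.8 to 55.9), while C57 ASIV spanned 10.7 to 58.7.

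For the synthetic enzymes the libraries of a group differed as much as the groups did. Gad1 encodes the decarboxylase that supplies most of the brain's GABA. Its gene lies on chr2:70553072-70602014, plus strand. In C57 its FPKM was 44.1, 69.2 and 46.2 with vehicle and 72.2, 72.1 and 42.0 with ASIV. In BTBR it was 46.5, 58.6 and 41.0 with vehicle and 37.9, 64.1 and 59.1 with ASIV. The groups overlapped in all 4 pairwise comparisons. BTBR minus C57 under vehicle was -0.11 ± 0.26 (SE, log2 of FPKM + 1), with a 95% interval of -0.67 to 0.45 and an adjusted p of 0.759 (limma). The coefficient of variation within a group ran from 18.5% to 28.0%.

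The 3 highest Gad1 libraries, C57 ASIV 1 and 2 and C57 vehicle 2, had olfactory and neuroblast marker sums of 58.7, 49.6 and 48.6 FPKM. BTBR ASIV 2, the fourth in Gad1 level, had a sum of 55.9, and the other 8 libraries had 10.7 to 29.8. The part of this regional signal in the Gad1 values was not tested.

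Gad2 encodes the form of the enzyme concentrated at nerve terminals. Its gene lies on chr2:22622205-22693874, plus strand. C57 libraries had 24.5, 33.6 and 31.4 FPKM with vehicle and 34.6, 34.1 and 31.5 with ASIV. BTBR libraries had 26.5, 47.3 and 30.4 with vehicle and 36.0, 38.9 and 58.0 with ASIV. All 3 BTBR ASIV libraries lay above all 3 C57 ASIV libraries, as was so for 13.4% of all tested genes, and that difference of 0.37 ± 0.21 did not pass the test over all genes (adjusted p = 0.361, limma). Under vehicle the strain difference was 0.18 ± 0.21 (95% interval -0.28 to 0.64). The highest Gad2 levels were in BTBR ASIV 3 and BTBR vehicle 2, whose striatal marker sums were 515 and 301 FPKM. C57 ASIV 3, with a sum of 312, had 31.5 FPKM of Gad2. The part of striatal signal in the Gad2 values was not tested. Without BTBR vehicle 2, ASIV minus vehicle in BTBR moved from 0.35 (adjusted p = 0.229) to 0.59 (adjusted p = 0.0335, limma).

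**Figure D2:**
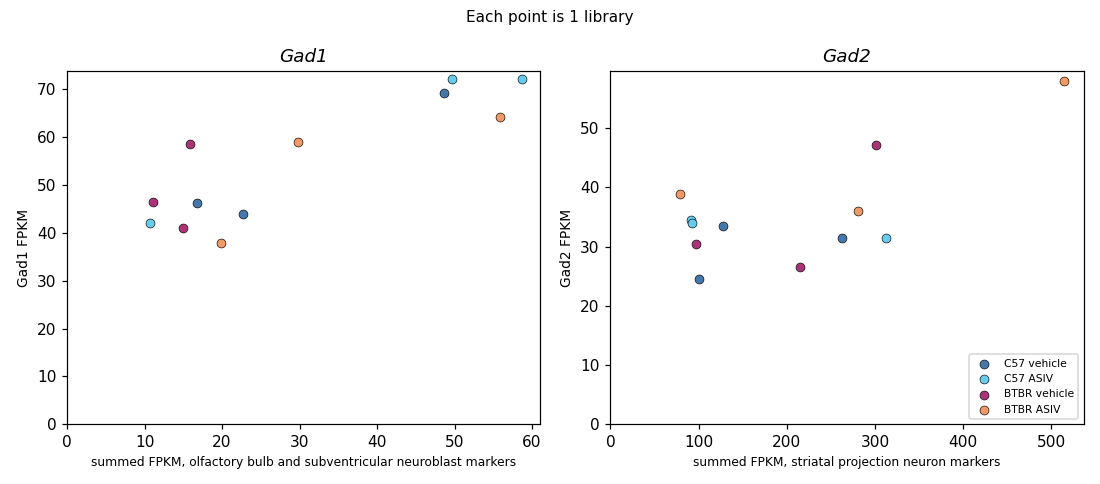
Each point is 1 library: Gad1 FPKM against the summed FPKM of 6 olfactory bulb and neuroblast markers (left), and Gad2 FPKM against that of 11 striatal projection neuron markers (right), all axes linear from 0. The 4 libraries with a sum of 48.6 or more on the left have Gad1 levels of 64.1 to 72.2, and BTBR ASIV 3 lies far to the right for the striatal markers with 58.0 FPKM of Gad2.

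Slc32a1, whose product fills vesicles with GABA, fell to about the same level in all 3 BTBR vehicle libraries. It read 20.5, 20.3 and 20.8 FPKM there, compared with 33.97, 44.7 and 38.8 in C57 vehicle. With ASIV it read 36.4, 40.7 and 42.3 in C57 and 39.4, 36.6 and 54.9 in BTBR. The BTBR vehicle libraries lay below all 9 others. The group mean was 20.55 ± 0.27 FPKM (SD, n = 3), which is 52.5% of the 39.2 ± 5.38 in C57 vehicle. The log2 difference was -0.89 ± 0.14 (adjusted p = 0.000381, limma). In bulk tissue, fewer cells of a type and less RNA per cell cannot be told apart.

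With ASIV, BTBR libraries carried 2.12 times the Slc32a1 of BTBR vehicle libraries, at 43.6 ± 9.88 FPKM, a log2 difference of 1.03 ± 0.14 (adjusted p = 0.000369, limma). BTBR ASIV 3 was the highest of the 12 libraries for Slc32a1 and for striatal markers. Without it the log2 difference was 0.85, still past the threshold. The olfactory and neuroblast marker sum was likewise lower in BTBR vehicle than in C57 vehicle and BTBR ASIV, without overlap, and its part in the Slc32a1, Slc6a11 and Abat results was not tested. Under ASIV the strains differed by 0.11 ± 0.14 (95% interval -0.20 to 0.42). The gene lies on chr2:158610767-158615748, plus strand, and shares 697 exon bases with the antisense gene Gm14205. Whether the counting used strand is not given in the sources used here, so reads of the pair cannot be told apart.

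Slc6a11, the astrocytic transporter GAT3, showed the largest strain difference of the 8 under vehicle. With vehicle its FPKM was 31.4, 23.4 and 27.0 in BTBR and 54.1, 71.4 and 65.2 in C57. With ASIV it was 44.3, 60.5 and 54.4 in BTBR and 71.7, 61.0 and 38.7 in C57. Again no library of another group came as low as BTBR vehicle. BTBR vehicle stood at 42.9% of C57 vehicle (27.3 ± 4.002 against 63.6 ± 8.74), a log2 difference of -1.19 ± 0.20 (adjusted p = 0.000673, limma). ASIV in BTBR was 1.95 times vehicle, with a log2 difference of 0.93 ± 0.20 (adjusted p = 0.00525, limma). C57 ASIV varied most, with a coefficient of variation of 29.5%, and the library at 38.7 was C57 ASIV 3, whose astrocyte marker sum of 782 FPKM was the lowest of the 12. The part of astrocyte content in that value was not tested. Slc6a11 spans chr6:114131241-114249952, plus strand.

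Abat, the transaminase that takes the first step of GABA breakdown, changed by close to the same amount as Slc32a1. It read 18.2, 16.5 and 14.1 FPKM in BTBR vehicle, and 30.1, 35.4 and 36.9 in C57 vehicle. The ASIV libraries had 30.1, 33.9 and 31.3 in C57 and 30.1, 29.7 and 42.3 in BTBR. BTBR vehicle was below all 9 other libraries. Its mean of 16.3 ± 2.08 was 47.6% of C57 vehicle at 34.1 ± 3.58, a log2 difference of -1.03 ± 0.14 (adjusted p = 0.000134, limma). With ASIV, BTBR rose 2.09 times to 34.03 ± 7.17, a log2 difference of 1.01 ± 0.14 (adjusted p = 0.000396, limma), and of 0.85 without BTBR ASIV 3. Abat spans chr16:8513429-8621568, plus strand.

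Aldh5a1, the dehydrogenase of the next step, passed the test in none of the comparisons. Its FPKM in C57 was 14.4, 16.7 and 16.8 with vehicle and 15.1, 16.4 and 15.1 with ASIV, and in BTBR 15.4, 14.3 and 13.6 with vehicle and 15.8, 16.1 and 19.4 with ASIV. Under vehicle the strains overlapped and differed by -0.13 ± 0.10 (95% interval -0.35 to 0.08). All 3 BTBR ASIV libraries lay above all 3 BTBR vehicle libraries, a separation that 19.0% of all tested genes showed in that direction, but the difference of 0.23 ± 0.10 did not pass (adjusted p = 0.104, limma). The gene lies on chr13:24907579-24937661, minus strand, and shares 796 exon bases with 4932702P03Rik (0.0385 to 0.190 FPKM) and 203 with 9330162012Rik (0.202 to 1.21 FPKM), both on the opposite strand.

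Of the receptor subunits only Gabbr2 passed the test, and only between the strains under vehicle. The Gabbr2 product carries the G protein coupling of the dimer. Vehicle libraries had 65.5, 60.3 and 67.9 FPKM in C57 and 33.0, 42.3 and 47.4 in BTBR. ASIV libraries had 52.1, 61.0 and 59.9 in C57 and 50.9, 53.8 and 42.3 in BTBR. BTBR vehicle lay below both C57 groups and overlapped BTBR ASIV. Its mean of 40.9 ± 7.31 was 63.4% of the 64.6 ± 3.87 in C57 vehicle, a log2 difference of -0.66 ± 0.13 (adjusted p = 0.00191, limma). ASIV minus vehicle in BTBR was 0.26 ± 0.13 (95% interval -0.03 to 0.55, adjusted p = 0.158, limma). Under ASIV the strain difference was -0.23 ± 0.13 (adjusted p = 0.356, limma). Gabbr2 spans chr4:46662305-46991873, minus strand.

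Gabbr1 encodes the subunit that binds GABA. It stood at 117, 109 and 114 FPKM in C57 with vehicle and at 97.9, 100.5 and 109 with ASIV. The BTBR libraries had 89.1, 109 and 109.8 with vehicle and 98.2, 100.8 and 98.0 with ASIV. The strains overlapped under vehicle and differed by -0.14 ± 0.10 (95% interval -0.35 to 0.07, adjusted p = 0.253, limma). Quantile normalization gave -0.25 with an adjusted p of 0.0223, which would bring the 4 calls to 5. Gabbr1 spans chr17:37045966-37075067, plus strand.

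**Figure D3:**
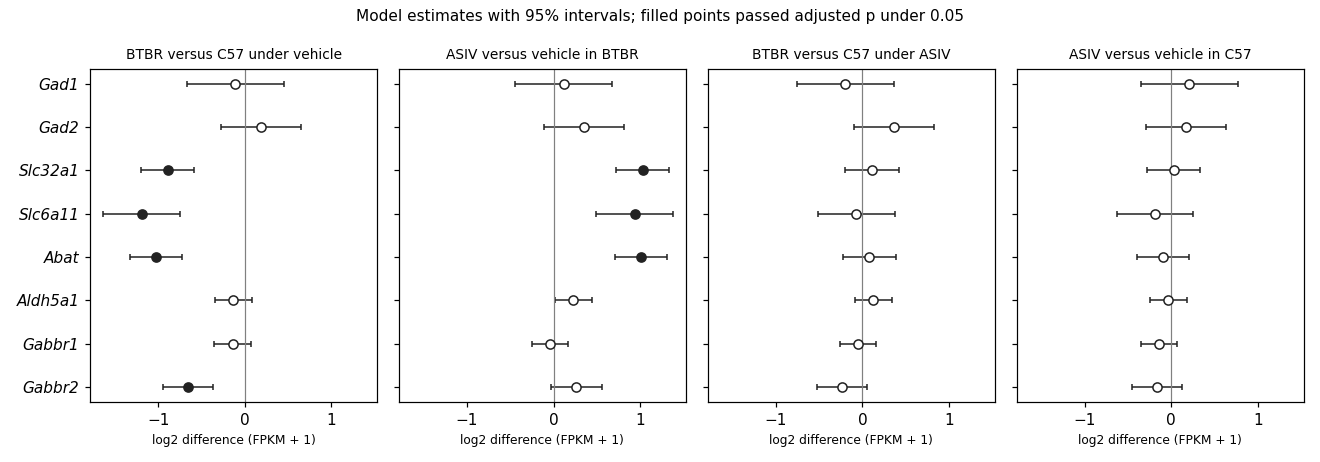
Log2 differences of FPKM + 1 with 95% intervals for the 8 genes in 4 comparisons; filled points passed an adjusted p under 0.05. The filled points are Slc32a1, Slc6a11, Abat and Gabbr2 on the left of 0 for strain under vehicle and Slc32a1, Slc6a11 and Abat on the right for ASIV in BTBR, with none in the other panels.

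Between the strains under vehicle, the libraries of 4 of the 8 genes (the ones called) did not overlap in the lower direction, as was so for 25.9% of all genes. The median log2 difference of the 8 was -0.40, beside 0.01 over all tested genes. That is no test of the set, whose choice was not blind to these data. The comparison of ASIV with vehicle in BTBR uses the same 3 BTBR vehicle libraries, so its values are given side by side and not as a separate line of evidence: the median of the 8 was 0.31, beside -0.01 over all genes. When strains were compared under ASIV, none of the 8 passed, while 2.53% of all genes did (344), and the median of the 8 was 0.02. In C57, ASIV minus vehicle ranged over the 8 from -0.19 (Slc6a11) to 0.21 (Gad1), each with an adjusted p of 1.00 in limma. There, 417 of 13586 genes had an unadjusted p under 0.05, and voom on the recovered fragments also called 0.

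The difference between the ASIV effects in the strains was tested directly by the interaction term. It uses the same BTBR vehicle libraries, which stood apart from the others, and is not a separate line of evidence. Slc32a1 (1.00 ± 0.20, adjusted p = 0.00748), Slc6a11 (1.12 ± 0.29, adjusted p = 0.0236) and Abat (1.11 ± 0.20, adjusted p = 0.00481) passed in limma, all higher, where 6.91% of all genes were called higher and 7.36% lower. For Slc6a11 the call was lost without C57 vehicle 2 (adjusted p = 0.0628), C57 vehicle 3 (0.0550), BTBR vehicle 2 (0.0501) or BTBR ASIV 2 (0.0504), with estimates of 1.02 to 1.10. Gabbr2 had an interaction of 0.42 ± 0.19 that did not pass (adjusted p = 0.153), and those of Gad1, Gad2, Aldh5a1 and Gabbr1 lay between -0.09 and 0.26.

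Ratios of FPKM within a library compare related genes (successive steps, the GAD enzymes or the receptor subunits) without reference to library scale. With 3 libraries against 3, the exact two-sided permutation test cannot go below 0.1, and over the 20 tests of 5 ratios in 4 comparisons the smallest adjusted value was 0.25, so no ratio could pass. Of the 5 ratios, 4 are described. The Slc32a1 to Gad1 ratio was 0.753 ± 0.0984 (SD, n = 3) in C57 vehicle and 0.432 ± 0.0814 in BTBR vehicle. In BTBR ASIV it was 0.571 to 1.04, above all BTBR vehicle libraries (exact permutation p = 0.1 for each of these comparisons). The Abat to Aldh5a1 ratio was 2.14 ± 0.052 in C57 vehicle, 2.05 ± 0.0443 in C57 ASIV and 1.98 ± 0.177 in BTBR ASIV, but 1.12 ± 0.0784 in BTBR vehicle, apart from all of them.

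The Gabbr1 to Gabbr2 ratio was 1.67 to 1.80 in C57 vehicle and 2.32 to 2.70 in BTBR vehicle, without overlap, and 1.87 to 2.32 in BTBR ASIV, which met the BTBR vehicle range at its top. The Gad1 to Gad2 ratio overlapped between groups in every comparison, at 1.02 to 2.12 over the 12 libraries.

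**Figure D4:**
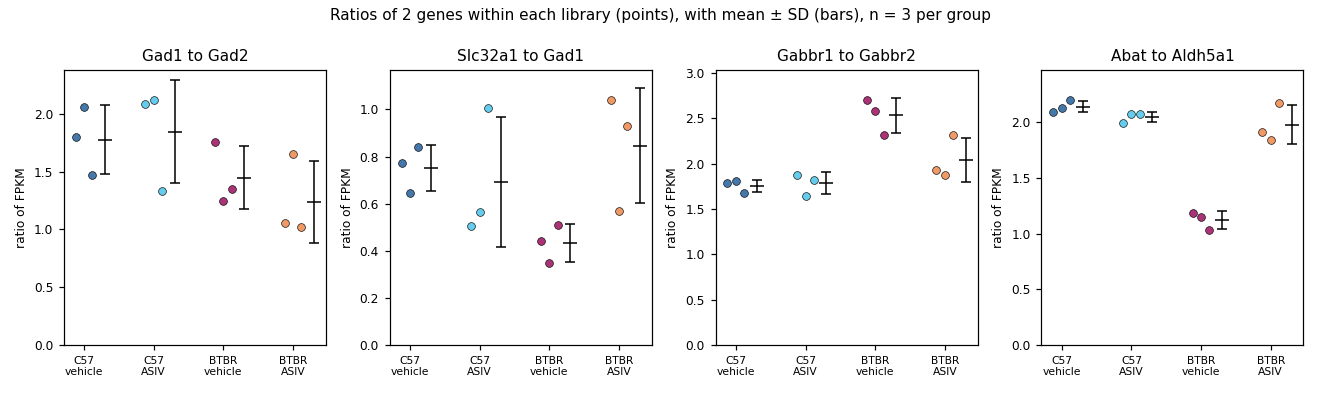
Ratios of the FPKM of 2 genes within each library (y axis, linear from 0) by group, with mean and SD, n = 3. BTBR vehicle is low for Slc32a1 to Gad1 and Abat to Aldh5a1, high for Gabbr1 to Gabbr2, and mixed with the others for Gad1 to Gad2.

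Likeness of pattern was measured as the root mean square difference of centred log2(FPKM + 1) over the 12 libraries, as a description that shares libraries, group structure and depth. Slc32a1 and Abat were nearest to each other among the 8, at 0.119, where the median distance to all tested genes was 0.477 for Slc32a1 and 0.491 for Abat. Outside the 8, the nearest were Ssbp2 (0.148) and Ybx1 (0.152) to Slc32a1, and Arhgdib (0.125) and Mmd2 (0.144) to Abat. Slc6a11 lay nearest Slc38a3 (0.142) and Sall1 (0.185), and Gabbr2 nearest R3hdm2 (0.0874) and Pknox2 (0.108). The nearest genes to Gad1 were Mdga1 (0.124) and Sema3c (0.142), and to Gad2 Ankrd63 (0.137) and Clip4 (0.159). Aldh5a1 and Gabbr1, which varied least, lay nearest Wasf3 (0.0558), and Mapk8ip3 (0.0611) and Mark1 (0.0646), respectively.

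Among the other GABA transporters and enzymes, 8 of 9 genes were tested (Slc6a12 was too low). In BTBR under vehicle 3 were higher and 2 lower, beside 22.3% and 20.8% of all genes. With ASIV in BTBR 3 were lower, beside 15.4% of all genes. The 2 lower genes became 1 without any of the 3 C57 vehicle libraries, BTBR vehicle 1 or BTBR vehicle 3, and 1 gene was higher with ASIV without BTBR ASIV 3. Aldh9a1 and Akr7a5, an aldehyde dehydrogenase that can form GABA from gamma-aminobutyraldehyde and a succinic semialdehyde reductase, moved opposite to Abat. Aldh9a1 was 0.67 ± 0.11 higher between strains (9.76 to 16.1 FPKM, adjusted p = 0.000457) and 0.52 ± 0.11 lower with ASIV, and Akr7a5 was 0.73 ± 0.12 higher (14.3 to 24.5 FPKM, adjusted p = 0.000541) and 0.65 ± 0.12 lower.

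Of 16 genes of glutamate and glutamine supply, 3 were higher and 5 lower in BTBR under vehicle, beside 22.3% and 20.8% of all genes. With ASIV in BTBR 1 was higher and 1 lower, beside 13.7% and 15.4%. The 5 lower genes became 3 without C57 vehicle 1 or C57 vehicle 2. With ASIV, 2 were higher without BTBR vehicle 1, BTBR vehicle 3 or C57 ASIV 3, and the 1 lower became 3 without BTBR vehicle 3 and 0 without BTBR vehicle 2, BTBR ASIV 1 or BTBR ASIV 3. Slc38a3, an astrocytic glutamine exporter, changed most. It stood at 20.2 ± 1.41 FPKM in C57 vehicle, and in BTBR at 7.77 ± 1.67 with vehicle and 14.9 ± 1.91 with ASIV, log2 differences of -1.29 ± 0.15 (adjusted p = 5.9e-05) and 0.87 ± 0.15 (adjusted p = 0.00152, limma). Glud1, glutamate dehydrogenase, was 0.48 ± 0.11 higher and Ogdh, of the 2-oxoglutarate dehydrogenase complex, 0.40 ± 0.08 lower between the strains.

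Of 24 tested genes of GABA-B receptor partners and effectors, 2 were higher and 5 lower between strains under vehicle, where 22.3% and 20.8% of all genes were. With ASIV in BTBR, 2 were higher and 2 lower, beside 13.7% and 15.4% of all genes. The 5 became 3 without C57 vehicle 1, C57 vehicle 3 or BTBR vehicle 3. Nsf, the fusion ATPase, was 0.68 ± 0.12 lower (adjusted p = 0.00059), Rgs7, a regulator of G protein signalling, 0.66 ± 0.09 lower (adjusted p = 0.00017), and Kcnj3, a subunit of the potassium channels opened by G proteins, 0.58 ± 0.14 lower (adjusted p = 0.00467, limma). Kcnj9, another subunit of those channels, was 0.53 ± 0.10 lower with ASIV in BTBR (adjusted p = 0.00261, limma). Unlike Kcnj3, it had a higher mean in BTBR vehicle (49.5 FPKM) than in C57 vehicle (38.1), and 34.3 in BTBR ASIV. The calls on Gnai2 (0.36, an inhibitory G protein alpha subunit) and Adcy1 (-0.41, an adenylyl cyclase) with ASIV were lost in several leave-outs: Gnai2 without BTBR vehicle 2, BTBR ASIV 1 or BTBR ASIV 3 (adjusted p = 0.0505 to 0.0553), Adcy1 without BTBR vehicle 1, BTBR vehicle 3, BTBR ASIV 2 or BTBR ASIV 3 (0.0512 to 0.109). The higher count of 2 became 0 without BTBR ASIV 3 and 1 without BTBR vehicle 1, BTBR vehicle 3, BTBR ASIV 1 or BTBR ASIV 2, and the lower count became 1 without BTBR ASIV 3.

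Of 12 GABA-A receptor subunit genes, which encode the GABA-gated chloride channels, 4 were lower and none higher in BTBR under vehicle (8 lower without BTBR vehicle 2). Over all genes, 20.8% were lower and 22.3% higher. With ASIV in BTBR, 4 were higher and none lower, beside 13.7% and 15.4% of all genes. The 4 higher became 2 without BTBR vehicle 1, BTBR vehicle 3 or BTBR ASIV 2. Gabra5 (-1.13 ± 0.12 and 0.67 ± 0.12) and Gabrb1 (-0.93 ± 0.09 and 0.83 ± 0.09) were called in each of the 2 comparisons. The median of the 12 was -0.37 between strains and 0.18 with ASIV.

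**Figure D5:**
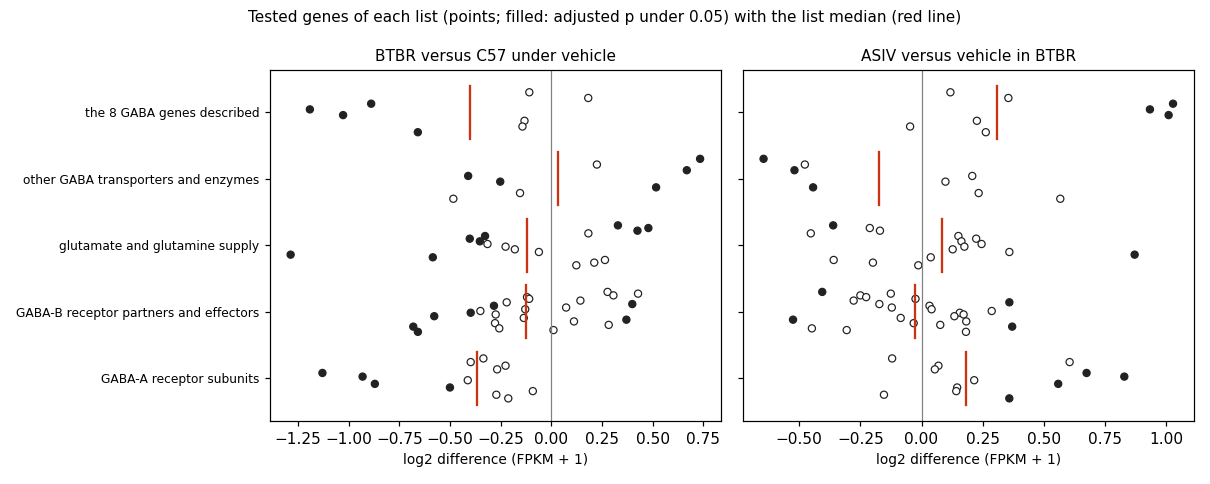
Log2 differences (x axis) for the tested genes of the 8 described and of 4 lists around them; filled points passed an adjusted p under 0.05 and red lines are medians. The medians for strain under vehicle are -0.40 for the 8 genes and -0.37 for GABA-A subunits, and the other lists lie between -0.12 and 0.04.

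Markers of the cells that express the 8 genes did not move as a block. Of 28 tested interneuron markers, 5 were higher and 9 lower in BTBR under vehicle, beside 22.3% and 20.8% of all genes. With ASIV in BTBR 8 were higher and 4 lower, beside 13.7% and 15.4%. The 5 became 3 without C57 vehicle 2, BTBR vehicle 2 or BTBR vehicle 3. The peptide gene Sst rose from 290.1 ± 28.4 to 783 ± 52.2 FPKM between the strains (1.43 ± 0.17, adjusted p = 5.8e-05) and Pvalb, a calcium buffer of fast-spiking cells, rose by 1.47 ± 0.21 (adjusted p = 0.000178), while the peptide gene Npy fell from 114 ± 12.2 to 37.6 ± 11.8 (-1.62 ± 0.22, adjusted p = 0.000138, limma). With ASIV in BTBR, Pvalb was 1.69 ± 0.21 and Sst 1.11 ± 0.17 lower, and Dlx5, a transcription factor of the interneuron lineage, 1.84 ± 0.27 higher. The 29 interneuron markers with values summed to 1702 to 1951 FPKM in BTBR vehicle and 866 to 1238 in the other groups. Sst and Cck, another peptide gene, made up most of that sum, and Cck alone was 592 to 829 FPKM in BTBR vehicle and 333 to 363 in C57 vehicle. These 2 genes were then left out, after the values were seen. Both were highest in BTBR vehicle, so leaving them out lowers the sum of that group relative to the others. The other 27 gave 313 to 364 FPKM in BTBR vehicle, 377 to 397 in C57 vehicle, 372 to 426 in C57 ASIV and 330 to 377 in BTBR ASIV. This reduced sum is therefore no measure of interneuron content. The part of interneuron content in the Slc32a1 result was not tested.

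Astrocyte markers, which bear on Slc6a11, gave 4 higher and 6 lower of 16 between strains under vehicle, beside 22.3% and 20.8% of all genes. With ASIV in BTBR they gave 2 higher and 1 lower, beside 13.7% and 15.4%. The 4 became 2 without C57 vehicle 1, and the 1 lower became 2 without BTBR vehicle 3. Slc7a10, an amino acid transporter of astrocytes, was 1.05 ± 0.16 lower (adjusted p = 0.000289), Aldoc, an aldolase, 0.66 ± 0.13 lower (adjusted p = 0.0017), and Aldh1l1, a folate enzyme, 0.70 ± 0.12 higher (adjusted p = 0.000523, limma). The 16 summed to 929 to 1095 FPKM with vehicle and 782 to 916 with ASIV in C57, and to 796 to 1020 and 961 to 1094 in BTBR, ranges that overlap between the vehicle groups. The part of astrocyte content in the Slc6a11 result was not tested.

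Between strains under vehicle, the remaining marker lists gave 1 higher and 4 lower of 14 for excitatory neurons, 3 higher and 0 lower of 10 for oligodendrocytes, 3 and 3 of 10 for microglia, 1 and 1 of 10 for endothelial and mural cells, 1 and 1 of 5 for meninges and choroid plexus, 0 and 1 of 11 for striatal projection neurons, and 0 and 0 of 6 for olfactory bulb and neuroblasts. With ASIV in BTBR the same lists gave 1 higher and 2 lower, 0 and 1, 2 and 3, 1 and 2, 2 and 1, 1 and 0, and 2 and 0. Over all genes, 22.3% were higher and 20.8% lower between strains under vehicle, and 13.7% and 15.4% with ASIV in BTBR. Several of the small list counts changed when a library was left out. Over all alternatives, strain under vehicle gave 0 to 3 higher for oligodendrocytes, 1 to 4 higher for microglia, 0 to 3 lower for olfactory bulb and neuroblasts, 0 to 1 higher and 0 to 2 lower for meninges and choroid plexus, and 1 to 2 lower for endothelial and mural cells. ASIV in BTBR gave 1 to 2 in each direction for excitatory neurons, 0 to 2 lower for oligodendrocytes and 1 to 2 higher for microglia. It gave 1 to 4 higher and 1 to 2 lower for endothelial and mural cells, 0 to 2 higher and 0 to 1 lower for meninges and choroid plexus, 0 to 1 higher for striatal projection neurons and 1 to 3 higher for olfactory bulb and neuroblasts.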

How the data were processed

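RNA from 12 medial prefrontal cortex libraries was extracted with Trizol and prepared by standard Illumina methods, per the labels' protocols. HISAT2 2.0.5 and mm10 are named in the submitters' processing notes. For the counter, annotation, strand setting and filters, the sources used here give nothing. The authors deposited 1 table of FPKM values. FPKM times exon length (GENCODE M21, 17265 of 17283 genes matched) gave whole fragments for 95.7% to 95.8% of values within 0.02, so depth could be recovered. Tests ran in limma 3.58.1 (R 4.3.3, trend and robust) on log2(FPKM + 1), on genes of at least 1 FPKM in 3 or more libraries, over all 12 libraries with 4 group means, with Benjamini-Hochberg adjustment over 13586 genes. Differences on this scale understate changes of low genes. The test was also run on simulated data with normal noise of 1 spread per gene in all groups. In the real data the mean variance within a group ran from 0.0226 (C57 vehicle) to 0.0642 (BTBR vehicle). That run therefore does not give the error rate for these data.

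The members and lists were chosen with earlier results of these data known. All 8 members are named; from other lists, up to 3 genes with the smallest p among those called per comparison; for likeness, the nearest 2 protein-coding genes. Results for the other lists under the alternatives were added after the data were seen. Alternatives covered the pseudocount, filter, scaling, TPM, groups fitted, weights, voom, a replicate block and leaving out each library. Some genes and 1 ratio that these rules select are not reported here.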

Additional observations from a re-analysis of the deposited data

Results flagged for a closer look

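Among the 8 genes, 3 passed the test of the interaction term (limma, Benjamini-Hochberg adjusted over all genes), where 6.91% of all genes were called higher and 7.36% lower. The term rests on the same BTBR vehicle libraries as the other calls, in which group and library state cannot be told apart. The interaction was 1.00 for Slc32a1 (adjusted p = 0.00748): ASIV minus vehicle was 1.03 in BTBR, with all 3 ASIV libraries above all 3 vehicle libraries, and 0.03 in C57. It was 1.12 for Slc6a11 (adjusted p = 0.0236, called in 18 of 22 alternatives), with 0.93 in BTBR and -0.19 in C57. It was 1.11 for Abat (adjusted p = 0.00481), with 1.01 in BTBR and -0.10 in C57.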

How the results depend on the processing

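The 4 calls between strains under vehicle (Slc32a1, Slc6a11, Abat and Gabbr2) and the 3 with ASIV in BTBR held in 23 of 23 alternatives, and the interactions of Slc32a1 and Abat in 22 of 22. Counts over all genes moved more. Genes called between strains under ASIV numbered 344 and ranged from 99 (without C57 ASIV 2) to 643 (without BTBR vehicle 2) on leaving out a library, and the interaction count of 1939 ranged from 1166 to 2178. ASIV in C57 gave 0 to 1. The main fit shares 1 spread per gene over the 4 groups. Their mean variances on the log2 scale were 0.0226 (C57 vehicle), 0.0376 (C57 ASIV), 0.0642 (BTBR vehicle) and 0.05 (BTBR ASIV). The quieter C57 libraries thus lower the spread used for BTBR, and the shares over all genes given above are those of the main fit. ASIV in BTBR gave 3954, or 2258 when only the groups compared were fitted. In this setting the calls on Gnai2, Adcy1 and Slc7a10 were among those lost. The interaction was not run with only the groups compared.

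Signs turned only for members that were not called. On leaving out a library, strain under vehicle ranged from -0.25 to 0.0933 for Gad1 and from -0.0561 to 0.35 for Gad2. Strain under ASIV ranged from -0.45 to 0.0297 for Gad1, -0.0636 to 0.22 for Slc32a1, -0.32 to 0.11 for Slc6a11 and -0.0833 to 0.17 for Abat. ASIV in BTBR ranged from -0.0256 to 0.35 for Gad1 and -0.15 to 0.00423 for Gabbr1 (0.0685 with quantile normalization). ASIV in C57 ranged from -0.0671 to 0.13 for Slc32a1, -0.37 to 0.0649 for Slc6a11 and -0.10 to 0.00416 for Aldh5a1 (0.0226 with TPM). The interaction ranged from -0.35 to 0.14 for Gad1, -0.0205 to 0.42 for Gad2 and -0.00477 to 0.14 for Gabbr1. The cause of these turns was not tested. No ratio moved.

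With the replicate number as a block, 4, 0, 3, 0 and 3 members were called (strain under vehicle, strain under ASIV, treatment in BTBR, treatment in C57, interaction), as without it, and 5808, 415, 4013, 0 and 1862 of all genes. Deviations of same-numbered libraries correlated at -0.17 to 0.28 (mean 0.05, over 0.1 in 8 of 18 pairs) and of differently numbered ones at -0.37 to 0.22 (mean -0.03, over 0.1 in 7 of 36), so the rule that every same-numbered pair exceed 0.1 was not met. Slc32a1 rested on as few as 942 fragments in a library and Aldh5a1 on as few as 1241. The part of counting error in their spread was not tested.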
